A study of Mus musculus with 36 samples.

Results

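Transcripts of the glycolytic enzymes that red cells depend on, and of bisphosphoglycerate mutase, were examined in mouse blood RNA. The genes were Bpgm, Hk1, Gpi1, Aldoa, Tpi1, Pgk1, Pgam1, Pklr, Pkm and Ldha. They were taken by name from a list chosen with earlier results of these data known. Every probe set whose only platform gene symbol was 1 of these 10 was used, which gave 22 of the 45101 probe sets on the array and covered 9 of the 10 genes. The Bpgm, Tpi1, Pgk1 and Pklr transcripts had 3 probe sets each, Aldoa had 5, Hk1 had 2, and Pgam1, Pkm and Ldha had 1 each. No probe set was listed under Gpi1 alone, so this gene, glucose-6-phosphate isomerase, was not analysed here. A gene is represented below by its brightest probe set over all arrays, with its other sets beside it.

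The blood came from 18 male mice aged 8 weeks, 3 from each of the inbred strains FVB/NJ, DBA/2J, C57Bl/6J, C3H/HeJ, A/J and 129S1/ImJ (written 129S1/SvImJ in the protocol text). All mice were untreated apart from isoflurane anaesthesia, and blood was drawn from the heart. RNA from each mouse was hybridized to 1 Affymetrix array as whole RNA and to 1 after treatment with the GLOBINclear kit, which reduces alpha and beta globin mRNA, 36 arrays in all. The study asked how globin transcripts affect array measurements of blood, and its 6 strains also allow the question of which transcripts differ by strain.

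A mature red cell has no mitochondria and makes its ATP by glycolysis alone. Hexokinase 1 (Hk1) phosphorylates glucose at the entry of the pathway, and aldolase A (Aldoa) splits the phosphorylated hexose. Triosephosphate isomerase (Tpi1) interconverts the resulting trioses, and phosphoglycerate kinase 1 (Pgk1) makes the first ATP. Bisphosphoglycerate mutase (Bpgm) diverts 1,3-bisphosphoglycerate at that step into 2,3-bisphosphoglycerate, which lowers the oxygen affinity of haemoglobin, and the product rejoins the pathway before phosphoglycerate mutase 1 (Pgam1). Pyruvate kinase closes the pathway: Pklr encodes the form of red cells and liver, Pkm the form of most other cells, platelets and white cells included, and lactate dehydrogenase A (Ldha) turns the pyruvate into lactate. The mRNA in circulating red cells is that of reticulocytes, the youngest red cells, and blood RNA also holds that of platelets and white cells, so most of these enzymes can come from several cell types.

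The arrays differed in scale between the preparations, which bears on every change given below. On the deposited log2 scale, 2495 ± 209 (SD, n = 18) probe sets reached log2 5 in whole RNA and 4364 ± 356 in GLOBINclear RNA. The hybridization spike-ins fell by 2.08 ± 0.24 (SD of 18 differences) after globin reduction. The difference between the 3′ and 5′ control sets of Gapdh, itself a glycolytic enzyme, rose from 0.13 ± 0.25 to 1.22 ± 0.20. The lowest correlation between arrays of a group was 0.932, in C57Bl/6J GLOBINclear RNA. Markers of red cells were measured throughout: all 14 reticulocyte and red cell markers with a probe set passed the filter on low values, and their mean level was 7.14 ± 0.61 in whole and 8.45 ± 0.55 in GLOBINclear RNA. Platelet markers were present as well, at a mean of 9.39 ± 0.62 and 10.55 ± 0.42 over 10 probe sets. In such bulk RNA, fewer cells of a type and less RNA per cell cannot be told apart.

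Sequence upstream of the transcription starts is shown for 5 of the members because the results below turn on them: Bpgm and Pklr, the members tied most closely to the red cell, and Aldoa, Tpi1 and Pgk1, whose levels ranked the strains in a similar order. Each run is the 250 bases before a RefSeq start (GRCm38.p6), read in the direction of transcription, and capitals mark matches to motifs of erythroid or oxygen-dependent regulators on either strand: GATA sites (AGATAA or TGATAA), the CACCC box that KLF factors bind, and the HIF core (ACGTG or GCGTG). The Bpgm window is chr6:34476106-34476355 on the plus strand. The Pklr window is chr3:89135892-89136141 on the plus strand. The Aldoa window is chr7:126799255-126799504 on the minus strand and lies within the span of the gene, which has 3 listed starts. The Tpi1 window is chr6:124814159-124814408 on the minus strand, and the Pgk1 window is chrX:106186850-106187099 on the plus strand.
Bpgm promoter: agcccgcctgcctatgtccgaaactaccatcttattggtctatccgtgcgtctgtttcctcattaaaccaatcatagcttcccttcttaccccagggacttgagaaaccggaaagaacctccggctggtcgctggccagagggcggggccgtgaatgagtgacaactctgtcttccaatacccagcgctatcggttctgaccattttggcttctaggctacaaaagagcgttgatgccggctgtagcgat
Pklr promoter of the first listed start: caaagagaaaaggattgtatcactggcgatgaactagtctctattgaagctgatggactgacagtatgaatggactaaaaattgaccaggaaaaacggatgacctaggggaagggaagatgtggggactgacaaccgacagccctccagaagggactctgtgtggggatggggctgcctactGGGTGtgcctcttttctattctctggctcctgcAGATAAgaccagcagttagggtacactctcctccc
Aldoa promoter of the second listed start: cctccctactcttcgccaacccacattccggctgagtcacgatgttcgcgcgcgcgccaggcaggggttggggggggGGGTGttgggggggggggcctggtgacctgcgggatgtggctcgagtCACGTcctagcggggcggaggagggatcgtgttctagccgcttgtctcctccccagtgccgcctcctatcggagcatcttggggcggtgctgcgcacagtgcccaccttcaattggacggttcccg
Tpi1 promoter: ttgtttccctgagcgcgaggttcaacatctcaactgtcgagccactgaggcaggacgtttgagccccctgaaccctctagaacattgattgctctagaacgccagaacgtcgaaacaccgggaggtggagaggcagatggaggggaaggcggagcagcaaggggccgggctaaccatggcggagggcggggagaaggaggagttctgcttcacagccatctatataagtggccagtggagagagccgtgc
Pgk1 promoter: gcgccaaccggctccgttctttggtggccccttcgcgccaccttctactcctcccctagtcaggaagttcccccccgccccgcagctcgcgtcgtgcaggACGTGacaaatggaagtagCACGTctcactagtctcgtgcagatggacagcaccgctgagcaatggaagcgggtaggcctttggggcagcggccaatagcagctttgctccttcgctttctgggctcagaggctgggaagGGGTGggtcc
The Pklr window held an AGATAA match and a CACCC match, whose first bases as printed lay 35 and 68 bases before the start. The window of the other listed Pklr start held none of these letters. The Pgk1 window held 2 HIF core matches and 1 CACCC match, and the printed Aldoa window 1 of each. The window of the first listed Aldoa start held 1 GATA match, 3 CACCC matches and no HIF core match. That of the third start overlapped the printed one and held the same matches, so these enter the counts below for each start. The Bpgm and Tpi1 windows held none of these letters. Over the 16 listed starts of the 10 genes, 3 windows held a GATA match, 9 a CACCC match and 8 a HIF core match, against 16.6%, 52.0% and 38.6% of all 32841 listed promoters, where the windows have the same length. A match is a run of letters and not a measured binding site.

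Globin reduction raised the signal of most of the glycolytic enzymes on the deposited scale, while Bpgm and Pklr fell. Of the 21 probe sets that passed the filter on low values (a mean over all arrays above log2 2.89), 16 rose and 5 fell by limma with the mouse as a block, at an adjusted p under 0.05. By the brightest set of each gene, 7 genes rose (Hk1, Aldoa, Tpi1, Pgk1, Pgam1, Pkm and Ldha) and 2 fell (Bpgm and Pklr). The background was high, since 87% of all 22518 tested probe sets were called, 39.4% as risen and 47.6% as fallen. The median change was 1.22 over the 21 sets and −0.05 over all tested sets. Of the 21 sets, 15 had a mean of log2 5 to 9, and all 15 rose, with a median of 1.67. Over the 2535 tested sets in that range the median was 1.41, with 2309 risen and 134 fallen. The 5 sets that fell lay outside that range, 3 above log2 9 and 2 under log2 5. The smallest of these falls, −0.11 for a Bpgm set and −0.09 for a Pklr set, were close to the mean change of the array median, −0.08.

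**Figure D1:**
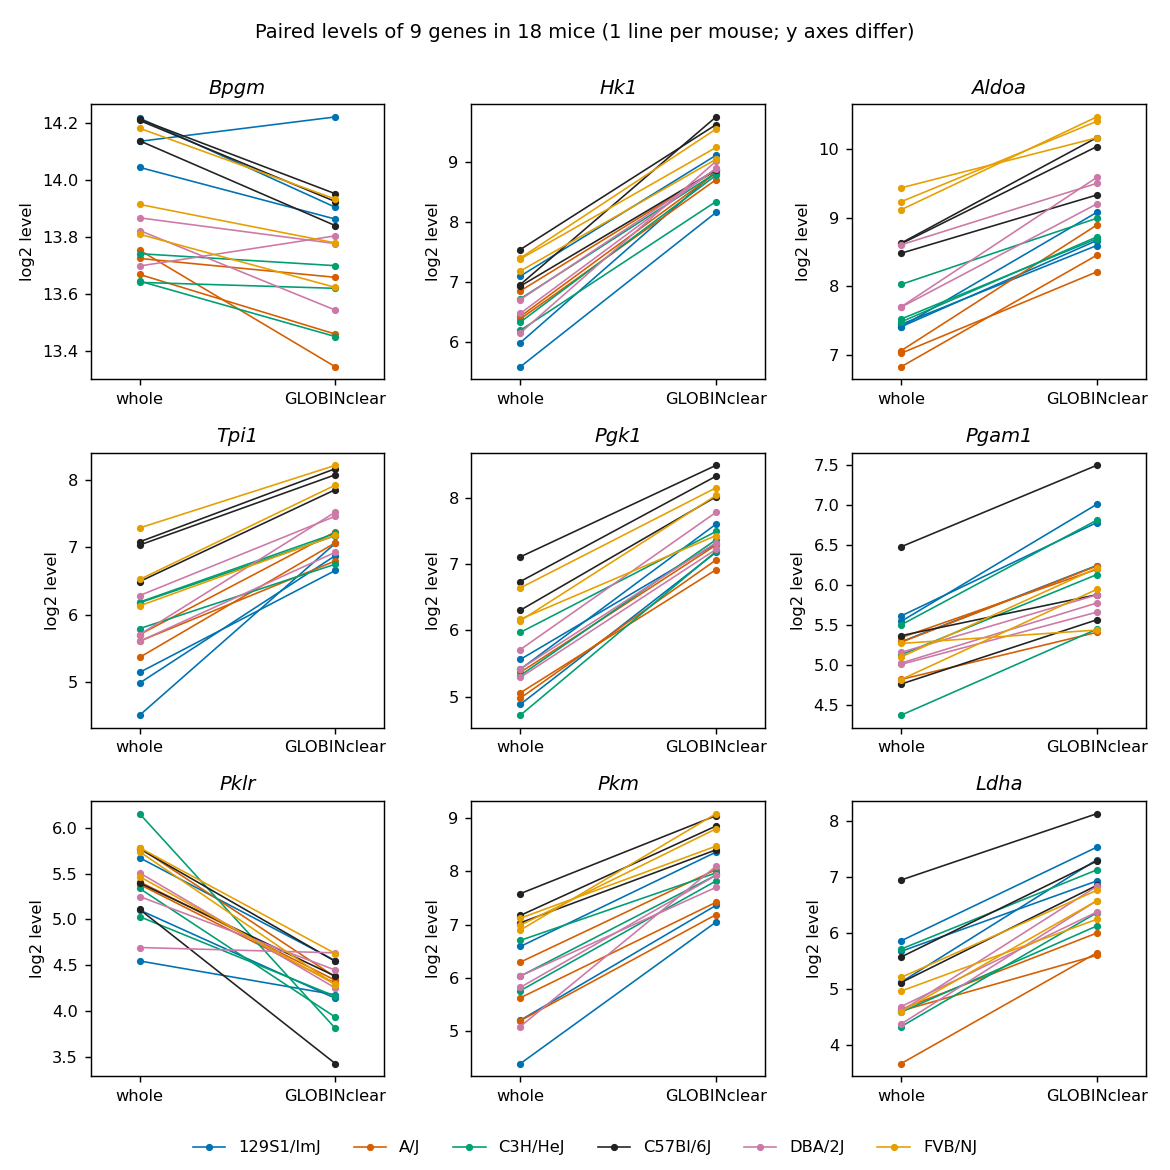
Log2 level of the brightest probe set of 9 genes (y, a scale of its own for each gene) in whole and GLOBINclear RNA (x), with 1 line per mouse, coloured by strain (18 mice). Lines rise in all 18 mice for Hk1, Aldoa, Tpi1, Pgk1, Pgam1, Pkm and Ldha, fall in all 18 for Pklr, and fall in 16 of 18 for Bpgm.

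Hk1, the entry point of the pathway, had the largest rise among the brightest sets. Its level ran from 5.59 to 7.54 over the 18 mice in whole RNA (median 6.72) and from 8.16 to 9.75 in GLOBINclear RNA (median 8.87), so the preparations did not overlap. The change was 2.27 ± 0.08 (SE, 18 of 18 mice higher, limma adjusted p = 4.49e-15), and it stayed a called rise of 0.98 when all arrays were forced to 1 distribution (quantile normalization). Its second set changed by 1.22 on the deposited scale and by −0.017 after quantile normalization, so the sets of this gene disagree on that scale.

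Aldoa went from a median of 7.70 (6.83 to 9.44) in whole RNA to 9.14 (8.21 to 10.47), a change of 1.30 ± 0.08 in 18 of 18 mice (limma adjusted p = 9.33e-12). These ranges overlapped, and the strain means within whole RNA spanned more (2.29) than the preparations differed, but every mouse rose. The other 4 Aldoa sets rose by 0.38 to 1.84. After quantile normalization the brightest set changed by 0.11 (adjusted p = 0.110), 3 sets changed by −0.66, −0.33 and −0.23, and 1 kept a called rise of 0.55. The suffix of all 5 names (x_at) marks sets with probes that also match other transcripts, and the mouse genome holds Aldoa-like copies.

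Tpi1 rose from 5.98 ± 0.75 (SD, n = 18) to 7.34 ± 0.51, a change of 1.37 ± 0.10 (SE), and its other sets by 1.99 and 1.96. After quantile normalization the brightest set changed by 0.03 and was not called, while the other sets kept called rises of 0.64 and 0.70. Pgk1, the first ATP-making step, rose from 5.71 ± 0.69 to 7.57 ± 0.46, a change of 1.86 ± 0.08 in all 18 mice. Its other sets rose by 1.20 and 2.59, and after quantile normalization the 3 changes were 0.52, −0.15 and 1.48, the first and last of them called. In whole RNA the Pgk1 set that rose most had stood at 4.56 ± 0.81. Its name and that of the Pgk1 set that rose by 1.20 end in x_at, as for Aldoa.

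Pgam1, which takes up the pathway where the Bpgm product rejoins it, showed the smallest rise among the brightest sets of the 7 genes. It went from a median of 5.22 (4.37 to 6.48) to 6.04 (5.41 to 7.50), a change of 0.90 ± 0.08 in 18 of 18 mice (limma adjusted p = 1.25e-09). On the quantile-normalized scale its direction turned, with a called change of −0.38. Ldha, at the end of the pathway, rose from a median of 4.82 (3.66 to 6.94) to 6.67 (5.60 to 8.13), a change of 1.67 ± 0.09 that stayed called after quantile normalization (0.43).

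Both pyruvate kinase genes were measured, and they moved in opposite directions. Pkm rose from a median of 6.17 (4.39 to 7.58) to 8.00 (7.05 to 9.08), a change of 1.88 ± 0.10 (SE) in 18 of 18 mice (limma adjusted p = 1.97e-12), and by 0.56, still called, after quantile normalization. Pklr fell from a median of 5.41 (4.55 to 6.16) to 4.30 (3.42 to 4.63), a change of −1.14 ± 0.11 in 18 of 18 mice (limma adjusted p = 1.06e-08). The ranges of Pklr overlapped between its lowest whole RNA array, a 129S1/ImJ mouse, and the highest GLOBINclear arrays. Its fall was larger, at −2.02, after quantile normalization. Setting the spike-ins equal on all arrays turned it into a rise of 0.94, and all 21 sets rose on that scale, where the median of all tested sets rose by 2.03. A second Pklr set, near the bottom of the scale, changed from 3.14 to 3.05, and the other (mean 2.69) did not pass the filter on low values.

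The red cell markers did not share the fall of Pklr. Of 14 tested, 12 rose and 2 fell, with a median change of 1.46. Slc4a1 (band 3, the anion exchanger of the red cell membrane) rose from 11.66 to 13.14 and Rhag, of the Rh complex, from 5.39 to 7.82. The pair that fell was Alas2, the first enzyme of haem synthesis in red cells (14.31 to 14.02), and Trim10 (9.66 to 9.51). Platelet markers rose in 9 of 10 cases, with a median change of 1.15, and P2ry12, a platelet ADP receptor, fell by 1.59. The part of 3′ bias or of cell types in these changes was not tested.

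Bpgm stood near the top of the scale in both preparations. Its brightest set ran from 13.64 to 14.22 in whole RNA (median 13.85) and from 13.34 to 14.22 in GLOBINclear RNA (median 13.78), and the highest value on any probe set of an array lay between 14.31 and 15.63. The fall was small, −0.17 ± 0.03 (SE), and was seen in 16 of 18 mice (limma adjusted p = 6.05e-05). A second set fell by 0.65 ± 0.04 in all 18 mice, from 14.00 to 13.35, and the remaining set by 0.11 ± 0.03 in 14 of 18 (limma adjusted p = 0.00610). After quantile normalization the changes were −0.03, −0.64 and −0.09, and only the second stayed called. Among the 663 tested sets with a mean above log2 9, 558 rose and 67 fell, with a median of 0.89.

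**Figure D2:**
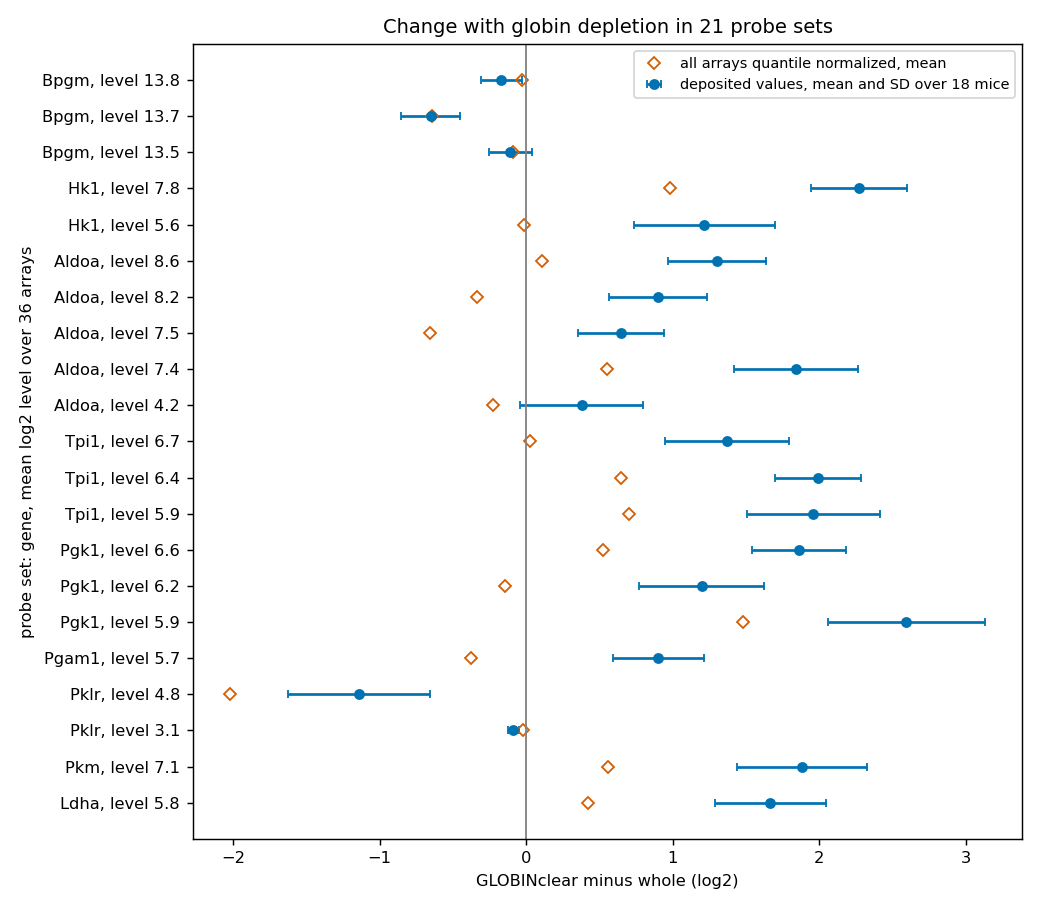
Change after globin reduction (x, GLOBINclear minus whole RNA, log2) of 21 probe sets, named by gene and mean log2 level (y). Filled points with bars are means and SD over 18 mice on the deposited scale, and open diamonds are means after quantile normalization of all arrays. The 3 Bpgm sets and both Pklr sets lie left of 0 and the other 16 right of it on the deposited scale, while 6 of those 16 lie left of 0 after quantile normalization.

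The change on globin reduction was not shown to differ between strains for any of these transcripts. By limma's interaction test on the 18 within-mouse differences, 0 of 21 sets were called, against 2.75% of all tested sets. The lowest adjusted p was 0.232, and 3 sets had an unadjusted p under 0.05. These were a Bpgm set, the brightest Tpi1 set and a Pgk1 set. For Tpi1 the rise ranged from 1.00 ± 0.03 (SD, n = 3) in C3H/HeJ to 1.99 ± 0.53 in 129S1/ImJ. For Pklr the fall ranged from −0.71 ± 0.61 in DBA/2J to −1.54 ± 0.75 in C3H/HeJ, with an adjusted p of 0.606 for the interaction (limma).

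Strain differences were frequent among these transcripts. By an F test across the 6 strains (limma), 13 of 21 sets were called in whole RNA, against 4.32% of all tested sets, and 13 of 21 in GLOBINclear RNA, against 11.2%. The share was larger among brighter sets: of the 2535 tested sets with a mean of log2 5 to 9, 485 were called in whole RNA and 817 in GLOBINclear RNA. Of the 663 tested sets above log2 9, where the Bpgm sets lie, 186 and 264 were called. The 13 sets called in whole RNA were all of Bpgm, Aldoa, Tpi1 and Pgk1, and sets of 1 gene are not separate results. By the brightest set, Bpgm, Aldoa, Tpi1 and Pgk1 differed by strain in both preparations (4 of 9 genes in whole RNA), and Pkm and Ldha in GLOBINclear RNA (6 of 9 genes). Hk1, Pgam1 and Pklr were called in neither. The 6 calls in GLOBINclear RNA were less stable than the count shows, since leaving out A/J replicate 2 or A/J replicate 3 left 1 gene, Aldoa, and leaving out C57Bl/6J replicate 2 or FVB/NJ replicate 1 left 2. Without C57Bl/6J replicate 3, C3H/HeJ replicate 2 or C3H/HeJ replicate 3, 3 genes were called.

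**Figure D3:**
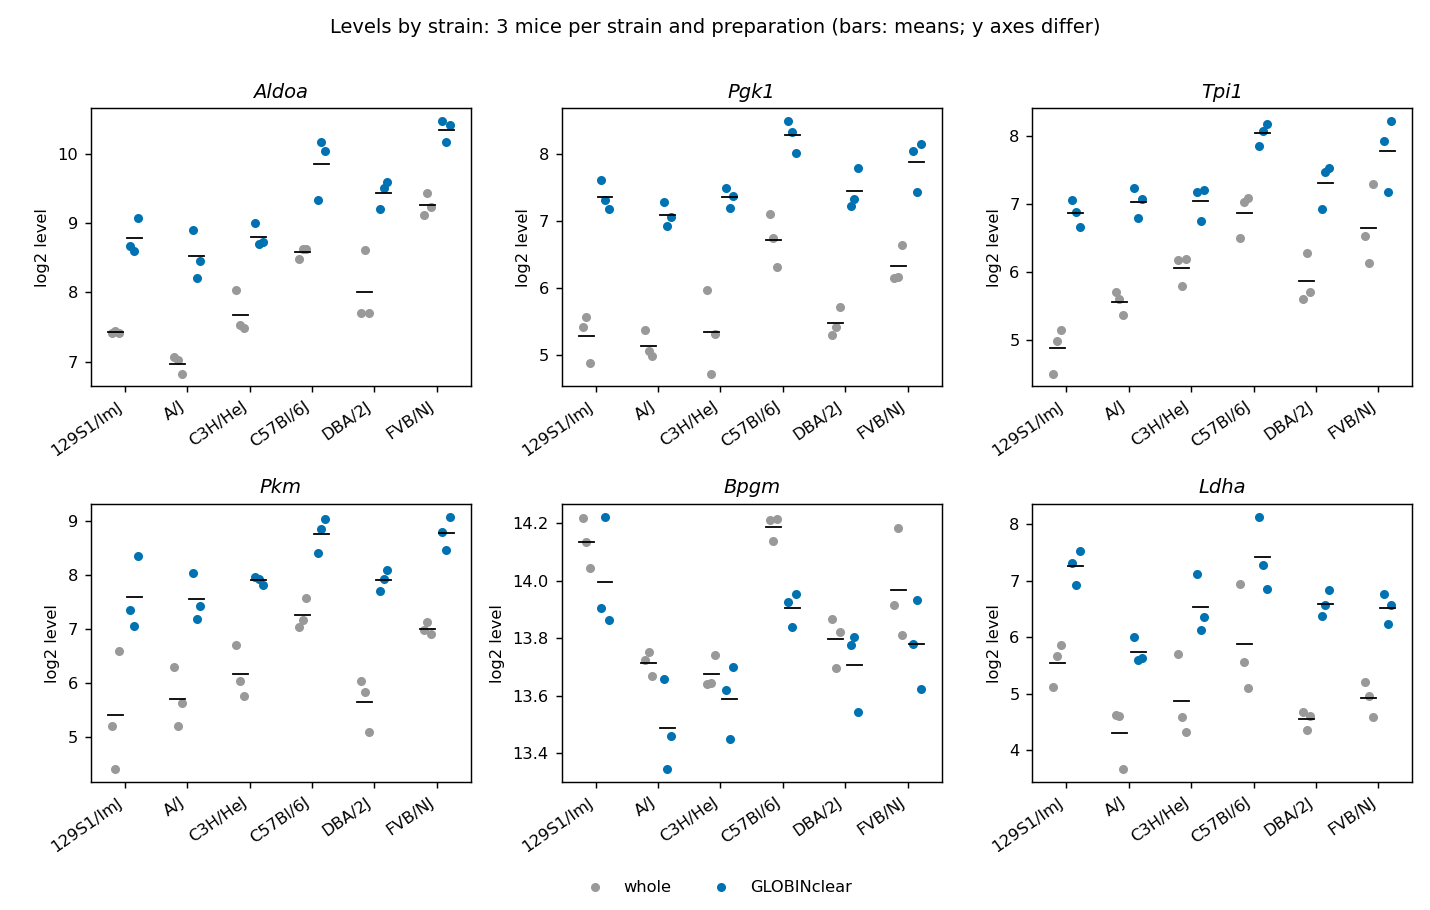
Log2 level (y, a scale of its own for each gene) of 6 genes by strain (x), with 1 point per mouse (3 per strain and preparation), grey for whole and blue for GLOBINclear RNA, and bars at the means. Aldoa is highest in FVB/NJ and lowest in A/J in both preparations, and Bpgm is lowest in A/J and C3H/HeJ.

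Aldoa separated the strains most clearly. In whole RNA the FVB/NJ mice stood at 9.12, 9.44 and 9.24, the C57Bl/6J mice at 8.48, 8.63 and 8.62, and the DBA/2J mice at 7.70, 8.61 and 7.70. The C3H/HeJ mice followed at 8.03, 7.52 and 7.48, the 129S1/ImJ mice at 7.41, 7.45 and 7.41, and the A/J mice at 7.06, 7.03 and 6.83. No A/J mouse reached any mouse of another strain, and no FVB/NJ mouse was reached, whereas DBA/2J overlapped both C57Bl/6J and C3H/HeJ. The strain means spanned 2.29 (limma F test, adjusted p = 0.000590). In GLOBINclear RNA the FVB/NJ mice stood at 10.47, 10.17 and 10.41 and the A/J mice at 8.90, 8.21 and 8.46, and the order of the 6 means was the same, although the A/J, 129S1/ImJ and C3H/HeJ mice then overlapped. That range was 1.83 (adjusted p = 0.000472). These calls held under all 26 alternatives in both preparations.

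Over the mean of each mouse's arrays, Aldoa in FVB/NJ was 1.40 ± 0.16 (SE) above the mean of the other 5 strains (limma adjusted p = 0.000147), with its 3 mice above all 15 others. In A/J the difference was −1.07 ± 0.16 (adjusted p = 0.00158), with its 3 mice below all others. It was also higher in C57Bl/6J (0.69, adjusted p = 0.0191) and lower in 129S1/ImJ (−0.64, adjusted p = 0.0305). The FVB/NJ and A/J calls held under all 25 alternatives, the C57Bl/6J call under 22 and the 129S1/ImJ call under 21, where leaving out any 1 of the 3 129S1/ImJ mice ended it. The Aldoa sets other than the dimmest agreed on all 4 directions, each with a called difference. As a background, 2.76% of all tested sets were called higher and 0.995% lower in FVB/NJ, 3.87% higher and 1.93% lower in C57Bl/6J, 1.55% higher and 1.69% lower in A/J, and 2.76% higher and 3.02% lower in 129S1/ImJ.

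Pgk1 was highest in C57Bl/6J. In whole RNA the C57Bl/6J mice stood at 7.11, 6.74 and 6.31, the FVB/NJ mice at 6.15, 6.17 and 6.64, and the 12 mice of the other strains between 4.72 and 5.97. In GLOBINclear RNA the C57Bl/6J mice stood at 8.50, 8.34 and 8.02, against 8.04, 7.44 and 8.16 in FVB/NJ and 6.92 to 7.79 in the others, so C57Bl/6J and FVB/NJ overlapped each other in both preparations. C57Bl/6J was 1.03 ± 0.20 (SE) above the mean of the other strains (limma adjusted p = 0.00537), and this call held under all 25 alternatives. FVB/NJ was 0.55 above the rest without being called by this set, and 2 other Pgk1 sets were called higher in that strain, by 0.60 and 0.73. The F test in whole RNA (adjusted p = 0.0188) held under 22 of 26 alternatives. It lost its call without C57Bl/6J replicate 1 and without C57Bl/6J replicate 2. The call also ended with the spike-ins set equal, and without C57Bl/6J replicate 1 and 129S1/ImJ replicate 3 together. In GLOBINclear RNA the F call (adjusted p = 0.0283) held under 16 of 26. There the other sets had adjusted p of 0.0499, called under 5 of 25 alternatives, and 0.0512, not called (limma F test).

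Tpi1 ranked the strains in much the same way. In whole RNA the C57Bl/6J mice stood at 6.49, 7.04 and 7.08 and the FVB/NJ mice at 6.52, 6.13 and 7.29, while the 129S1/ImJ mice, at 4.50, 4.98 and 5.14, lay below all 15 others. In GLOBINclear RNA the 129S1/ImJ mice stood at 7.06, 6.88 and 6.66 and overlapped A/J and C3H/HeJ. Against the other strains Tpi1 was 0.95 ± 0.20 (SE) higher in C57Bl/6J (limma adjusted p = 0.0106) and as far below them in 129S1/ImJ (−0.95, adjusted p = 0.0117). The F test of this set held in whole RNA under all 26 alternatives and in GLOBINclear RNA (adjusted p = 0.0377) under 8 of 26. The name of this set ends in x_at, as for Aldoa. Both other Tpi1 sets were called higher in C57Bl/6J (0.89 and 1.02). In 129S1/ImJ they stood at −0.57, not called (limma adjusted p = 0.116), and −0.75, called (adjusted p = 0.0275). By the first of these, A/J was lowest in whole RNA (4.98 against 5.01 in 129S1/ImJ). Its F call there held under 5 of 25 alternatives. The second was not called by the F test in GLOBINclear RNA (adjusted p = 0.0840).

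Pkm was higher in C57Bl/6J as well. Its C57Bl/6J mice stood at 7.03, 7.17 and 7.58 in whole RNA and 8.40, 8.85 and 9.04 in GLOBINclear RNA, beside 6.99, 7.12 and 6.90 and then 8.79, 8.47 and 9.08 in FVB/NJ. The 129S1/ImJ mice were the most spread, at 5.21, 4.39 and 6.59 and then 7.36, 7.05 and 8.36. In that strain replicate 3 was the high mouse, and its 7 neutrophil markers averaged 7.24 and 8.66 in the 2 preparations, against 4.53 to 4.84 and 6.14 to 6.22 in the other 129S1/ImJ mice. Their part in its Pkm level was not tested. Leaving out this mouse and C57Bl/6J replicate 1, a pair chosen after seeing the data, left 2 mice of 129S1/ImJ. Pkm in that strain then stood at −1.30 against the rest, against −0.78, not called, with all mice. The strain's highest Pkm values were what was removed, so this gives no test of a strain difference. C57Bl/6J stood 1.05 ± 0.28 (SE) above the rest (limma adjusted p = 0.0407), a call that held under 9 of 25 alternatives. The F test was called in GLOBINclear RNA (adjusted p = 0.0325), under 12 of 26 alternatives, and not in whole RNA (adjusted p = 0.0923).

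The strain order of these 4 enzymes resembled that of the platelet markers, with exceptions. Aldoa and Pgk1 were lowest in A/J in both preparations, whereas the platelet markers were lowest in 129S1/ImJ. Aldoa was highest in FVB/NJ, and Pkm in whole RNA was lower in DBA/2J (5.65) than in A/J (5.71) and C3H/HeJ (6.17). The mean of the 10 platelet markers was highest in C57Bl/6J (9.67 to 10.39 over its 3 mice in whole RNA) and FVB/NJ (9.78 to 10.41), followed by DBA/2J (9.21 to 9.91), C3H/HeJ (8.98 to 9.39), A/J (8.75 to 9.18) and 129S1/ImJ (8.35 to 8.67). In GLOBINclear RNA the order of the means was the same, with the C57Bl/6J mice at 10.56 to 11.26 and the 129S1/ImJ mice at 9.82 to 10.25. Of the 10 markers, 6 were called higher in C57Bl/6J and 3 in FVB/NJ, and 4 were called lower in 129S1/ImJ and 2 in A/J. Vwf (von Willebrand factor) was 1.19 higher in C57Bl/6J and Treml1, a platelet receptor, 1.67 lower in 129S1/ImJ (strain minus rest −1.67). The part of platelet RNA in the strain differences of Aldoa, Pgk1, Tpi1 and Pkm was not tested.

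**Figure D4:**
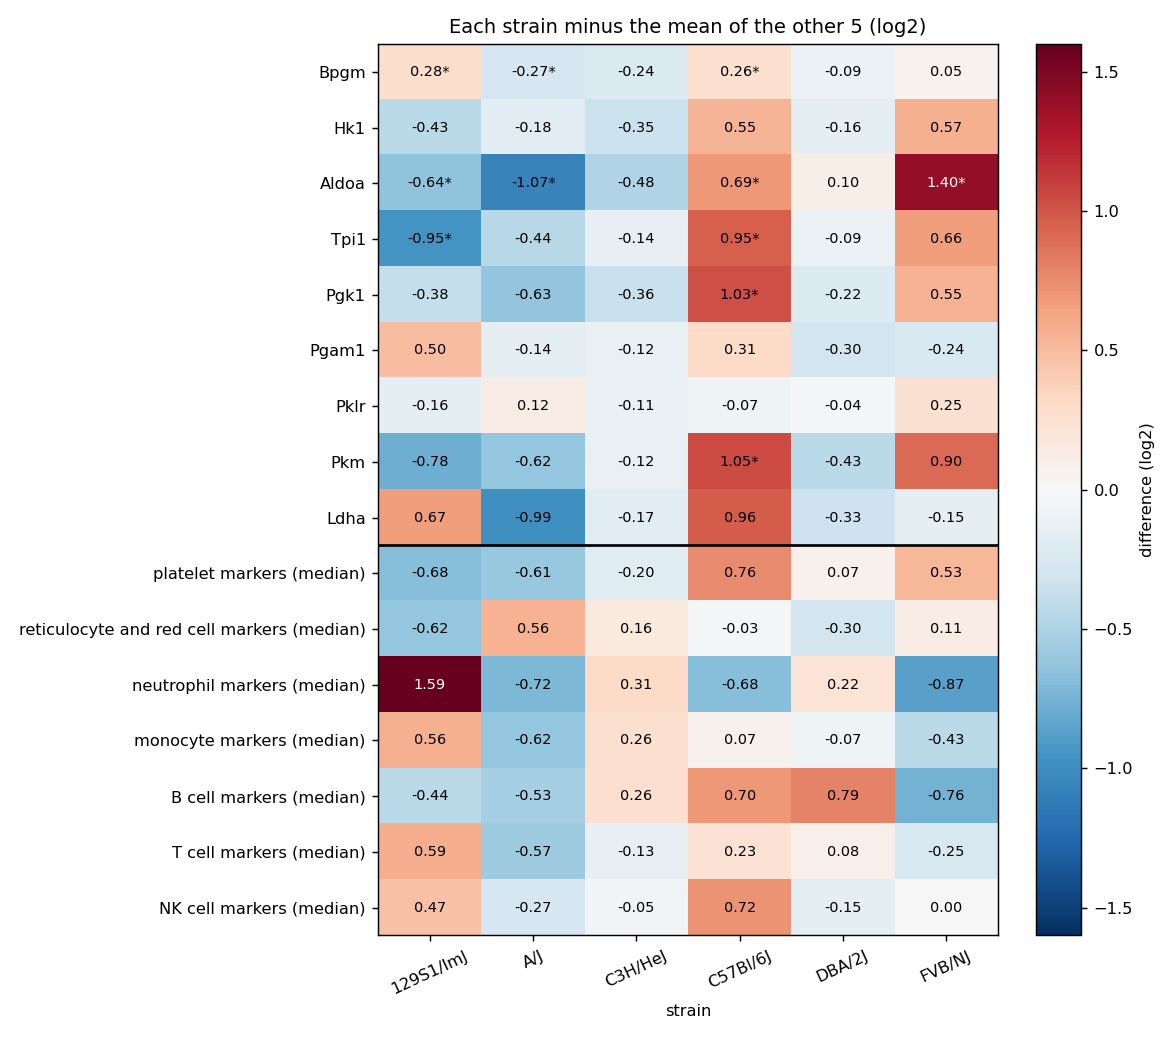
Difference of each strain (x) from the mean of the other 5 (log2, printed in each cell and shown by colour, red higher and blue lower) for the brightest probe set of 9 genes and, below the line, the median over each list of cell type markers. Values are over the mean of each mouse's 2 arrays, 3 mice per strain, and asterisks mark genes with a limma adjusted p under 0.05. Aldoa ranges from −1.07 in A/J to 1.40 in FVB/NJ, and the platelet marker median from −0.68 in 129S1/ImJ to 0.76 in C57Bl/6J.

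Bpgm also differed between strains. In whole RNA the C57Bl/6J mice stood at 14.21, 14.14 and 14.21 and the 129S1/ImJ mice at 14.22, 14.14 and 14.04. The A/J mice, at 13.72, 13.75 and 13.67, and the C3H/HeJ mice, at 13.64, 13.64 and 13.74, lay below all of these and overlapped each other. The DBA/2J mice (13.87, 13.70 and 13.82) overlapped A/J and C3H/HeJ, and the FVB/NJ mice (13.91, 14.18 and 13.81) reached the 129S1/ImJ values. The range of the strain means was 0.51 in both preparations, with a pooled SD within strains of 0.10 in whole and 0.15 in GLOBINclear RNA (limma F test, adjusted p = 0.00172 and 0.0351). The call in whole RNA held under 25 of 26 alternatives, and the call in GLOBINclear RNA under 14 of 26. Calls of the second Bpgm set held under 24 of 25 in each preparation. Those of the remaining set held under 6 of 25 in whole and 22 of 25 in GLOBINclear RNA.

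Against the other 5 strains, Bpgm was 0.28 ± 0.06 (SE) higher in 129S1/ImJ (limma adjusted p = 0.0120), 0.26 ± 0.06 higher in C57Bl/6J (adjusted p = 0.0183) and lower in A/J (−0.27 ± 0.06, adjusted p = 0.0224). Its second set gave the same 3 calls, at 0.32, 0.41 and −0.31, and its remaining set none. The C57Bl/6J call of the brightest set ended when any 1 of the 3 C57Bl/6J mice was left out, and the A/J call without A/J replicate 2 or A/J replicate 3. On the spike-in scale the difference was 0.11 in 129S1/ImJ, −0.12 in A/J and 0.21 in C57Bl/6J, and none of the 3 was called. The 129S1/ImJ call also ended without 129S1/ImJ replicate 2 (0.23). Under quantile normalization the A/J (−0.24) and C57Bl/6J (0.23) calls ended. Values this close to the top of the scale may be compressed, so the sizes are not comparable with those of dimmer sets.

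The strain order of Bpgm differed from that of the red cell markers in A/J and 129S1/ImJ. The mean of the 14 reticulocyte and red cell markers was highest in A/J (7.79 ± 0.27, SD, n = 3, in whole and 9.06 ± 0.09 in GLOBINclear RNA), where Bpgm was low, and lowest in 129S1/ImJ (6.41 ± 0.80 and 7.89 ± 0.72), where Bpgm was high. Tfrc, the transferrin receptor that marks the youngest reticulocytes, was lower in 129S1/ImJ (strain minus rest −2.95, limma adjusted p = 0.00211), and Rhag was higher in A/J (1.73, adjusted p = 0.0487) and lower in 129S1/ImJ (−1.84, adjusted p = 0.0253). In C57Bl/6J, where Bpgm was also high, 1 of the 14 markers was called higher (Tspo2, 3.29). There 3 were called lower (Add2, Ermap and Tfrc, at −1.71, −2.07 and −1.92). Alas2, which like Bpgm stands near the top of the scale, had strain means within 0.20 in both preparations and was not called. Whether reticulocyte number plays a part in the Bpgm differences was not tested.

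Ldha and Pgam1 were marked by 1 mouse. C57Bl/6J replicate 1 had the highest level of all 18 mice in both preparations for Pgam1 (6.48 and 7.50) and for Ldha (6.94 and 8.13). The same mouse stood apart in its 11 T cell markers, which averaged 5.56 in whole and 6.65 in GLOBINclear RNA, against 3.61 to 4.13 and 4.22 to 4.86 in the other C57Bl/6J mice. Its B cell (5.63 and 7.12), NK cell (4.29 and 5.45) and monocyte (5.31 and 6.35) marker means were also the highest of the 3 C57Bl/6J mice in both preparations. It had the most probe sets at log2 5 or above of all 18 mice in whole (3122) and in GLOBINclear RNA (5278). Their part in these levels was not tested. Without this mouse and 129S1/ImJ replicate 3, Pgam1 in C57Bl/6J stood at −0.20 against the other strains in place of 0.31, neither of them called. Ldha in GLOBINclear RNA was lowest in A/J (5.99, 5.60 and 5.64), below every mouse of the other strains, and high in 129S1/ImJ (7.30, 6.92 and 7.53) and C57Bl/6J (8.13, 7.28 and 6.84), with an F test called at an adjusted p of 0.0241 (limma) under 22 of 26 alternatives. That Ldha call was kept without C57Bl/6J replicate 1. It ended without A/J replicate 2, without A/J replicate 3, with the spike-ins set equal and with no filter on low values. With all mice no strain was called against the rest for Ldha, and in whole RNA the F test was not called (adjusted p = 0.256). Without the same pair of mice, which was chosen after seeing the data, Ldha was called lower in A/J (−0.87, limma adjusted p = 0.0365, against −0.99 with all mice). C57Bl/6J then stood 0.55 above the rest in place of 0.96, neither of them called.

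Hk1, Pgam1 and Pklr showed no called strain difference. For Hk1 the strain means in GLOBINclear RNA ran from 8.65 in C3H/HeJ to 9.41 in C57Bl/6J with a pooled SD within strains of 0.32 (limma F test, adjusted p = 0.246). For Pgam1 they ran from 5.77 in DBA/2J to 6.68 in 129S1/ImJ with a pooled SD of 0.59 (adjusted p = 0.756). For Pklr they ran from 3.97 in C3H/HeJ to 4.44 in DBA/2J with a pooled SD of 0.30 (adjusted p = 0.716), and its strain order in whole RNA, with FVB/NJ highest and 129S1/ImJ lowest, was not that in GLOBINclear RNA. In all, 33 calls of a strain against the rest were made over the 21 sets and 6 strains, and none of them was for C3H/HeJ or DBA/2J, where 0.751% and 1.03% of all tested sets were called higher and 0.635% and 1.11% lower.

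Other genes of the pathway were taken from lists chosen with earlier results of these data known. Of 26 other glycolysis enzymes, 20 had a probe set and 12 were tested; 4 rose, 5 fell and the median change was −0.11. Pfkfb4, which makes and breaks fructose 2,6-bisphosphate, rose from 3.40 to 6.39 (2.98 ± 0.09, SE), and Pfkl, a phosphofructokinase subunit found in liver and red cells, rose by 0.89. Minpp1, a phosphatase that can dephosphorylate 2,3-bisphosphoglycerate, rose by 0.36, and Tigar fell by 0.31, from 3.37 to 3.06. The enolase gene Eno3 alone among the 12 had a called interaction (limma adjusted p = 0.0371), although its level was low (3.37 in whole and 3.57 in GLOBINclear RNA).

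Of 6 tested glucose and lactate transporters, 4 rose and 2 fell. Slc2a3 (GLUT3) rose from 10.62 to 11.82, and Slc16a1 (MCT1, which carries lactate) from 5.24 to 6.86. Slc16a1 differed by strain in GLOBINclear RNA (limma adjusted p = 0.0175), lowest in 129S1/ImJ and highest in A/J, as was the mean of the red cell markers. Slc2a1 (GLUT1) rose by 0.41 in 12 of 18 mice and was 1.03 above the other strains in 129S1/ImJ (adjusted p = 0.0132).

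Of 6 tested pentose phosphate enzymes, which share glucose 6-phosphate with glycolysis and supply NADPH, 5 rose and 1 fell, with a median of 1.37. Pgd rose from 3.89 to 6.40, Tkt (transketolase) from 7.32 to 9.39 and Taldo1 (transaldolase) from 10.94 to 12.39. Pgd was lower in FVB/NJ (strain minus rest −1.36, limma adjusted p = 0.000680), the strain where Aldoa was highest, and Taldo1 was 0.42 higher there (adjusted p = 0.0162).

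Of 7 tested regulators of glycolysis genes, 4 rose and 1 fell. Klf1, the red cell factor that binds CACCC boxes like those marked in the windows above, rose from 4.67 to 6.91 and differed by strain in GLOBINclear RNA (limma adjusted p = 0.00247), with C57Bl/6J lower than the rest (−2.32, adjusted p = 0.00178). Hif1a changed by 0.20 and was not called (adjusted p = 0.0577), and Arnt, its partner, fell by 0.35.

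Across the 18 GLOBINclear arrays the levels of the members fell into loose groups, given here as a description since the arrays share strains. Aldoa and Pkm had a Pearson correlation of 0.89, and of 0.83 after each strain's mean was removed. Pgk1 and Tpi1 had 0.89 and 0.74, and Ldha and Pgam1 0.71 and 0.90. Both values for Ldha and Pgam1 include C57Bl/6J replicate 1, the highest mouse for both genes, and the correlation without it was not tested. Bpgm had 0.61 with Ldha, which became −0.15 once strain means were removed, and its values with the other members were at most 0.34.

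The transcripts most like 4 of the members over those 18 arrays were found by the same measure. Flii, an actin-binding protein of the gelsolin family, was closest to Bpgm with both of its sets (0.84 and 0.81), and these correlations were 0.75 and 0.80 in whole RNA. The third set, of Mcrip1 (0.81, at a GLOBINclear level of 3.92), had only 0.14 with Bpgm in whole RNA. Tesc (0.94), Mast2 (0.94) and Sort1 (0.93) were closest to Pkm, and Mylk, the smooth muscle myosin light chain kinase (0.91), Dusp14 (0.88) and Acot7 (0.87) to Hk1. In whole RNA the correlations were lower, at 0.67, 0.84 and 0.49 with Pkm and 0.83, 0.51 and 0.72 with Hk1, in the same order. The sets closest to Pklr, of Trip4, Zfp825 and Lefty2, had GLOBINclear levels of 2.97 to 3.16, at the bottom of the scale, and correlations of −0.01, −0.24 and 0.32 with it in whole RNA.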

How the data were processed

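The measurements were 36 Affymetrix arrays of blood RNA, 1 of whole and 1 of GLOBINclear RNA from each of 18 mice, grouped by strain and preparation from the titles. The authors deposited log2 expression summaries per probe set; GCRMA, MAS5 and affy are named per the submitters' processing notes, without versions, roles or order. That the scale is log2 was read from the values, and joint normalization of the preparations is neither stated nor denied in these sources. The 64 control sets were set aside, and sets with a mean over 36 arrays above log2 2.89 were tested, 22518 of 45037. Of the non-control sets, 34945 had 1 gene symbol in the platform annotation, 932 several and 9160 none, and 0 value columns were left unused. A set with several symbols, Hk1 among them, was not used.

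Fits were made on the whole table with limma 3.58.1 in R 4.3.3 (eBayes with an intensity trend, Benjamini-Hochberg adjustment, threshold 0.05). They were GLOBINclear minus whole with the mouse as a block, its interaction with strain on within-mouse differences, an F test over strains in each preparation, and each strain set against the other 5 strains' mean, with the arrays of a mouse averaged first. The procedures were tested on simulated data. Pairing came from the series design, which gives both preparations as portions of the blood of 1 mouse. Residuals of the paired arrays correlated at −0.08 to 0.66 (median 0.38), and 17 of 18 mice correlated best with their own number, DBA/2J replicate 3 being the exception. The number of arrays limits the precision.

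The members, gene lists, tests and alternatives were chosen with earlier results of these data known. Named genes were all members through every set, the pathway and marker lists, and the 3 sets most correlated with Bpgm, Pklr, Hk1 and Pkm over the GLOBINclear arrays. Promoter sequences were read from a RefSeq table (GRCm38.p6), in which 10 of 10 genes were found. Alternatives were 3 other scalings, 2 other filters, no intensity trend, no replicate block, the mean of a gene's sets, each mouse left out, and, chosen after seeing the data, leaving out C57Bl/6J replicate 1 and 129S1/ImJ replicate 3 together. Plots used matplotlib 3.10.9 and pandas 2.3.3 (python 3.11.15).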

Additional observations from a re-analysis of the deposited data

How the results depend on the processing

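The scale of the arrays was the choice that moved most. With arrays centred on the hybridization spike-ins, 22483 of all tested sets rose and 13 fell, 0 member sets and 0 member genes fell, and Bpgm (1.91, 1.97 and 1.43 for its 3 sets) and Pklr (0.94 and 1.99) rose. Strain calls were then 8 member sets and 2 genes in whole RNA, 4 sets and 1 gene in GLOBINclear RNA (1672 of all sets), and 21 member calls of a strain against the rest. Of all calls after globin reduction, 45.3% were rises on the deposited scale, 52.6% with arrays centred on their median, 37.7% after quantile normalization and 99.9% on the spike-in scale. The median of all tested sets was −0.05, 0.03, −0.08 and 2.03 on these scales, and that of the 21 member sets 1.22, 1.30, −0.017 and 3.29. After quantile normalization 8 member sets and 4 genes rose, the direction turned for Hk1 (second set, −0.017), Pgam1 (−0.38), 3 Aldoa sets (−0.66, −0.33 and −0.23) and a Pgk1 set (−0.15), and the interaction called 366 of all sets and 1 member set. Centred on the median, 3 member sets fell. With no filter on low values 28738 of all sets fell, and 7 member sets and 1 gene differed by strain in GLOBINclear RNA. With only sets of a mean of at least log2 5, which tests fewer sets, 2872 rose and 202 fell, 3 member sets and 1 member gene fell, the interaction called 128 and the strain test in GLOBINclear RNA 1676 of all sets, and 50 member calls were made against the rest. Among values of single sets, and apart from left-out mice, 1371 kept direction and side of the threshold, 73 lost a call, 36 gained one, 11 turned and 18 uncalled values changed sign. The cause of these shifts was not tested.

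Without the replicate block, 16 member sets rose and 5 fell as in the paired fit, 8773 of all sets rose and 10682 fell, the interaction called 497 of all sets and 0 member sets, and no member call changed. Leaving out each mouse in turn gave 16 risen and 5 fallen member sets and 7 and 2 genes every time, with 8703 to 8869 of all sets risen and 10619 to 10853 fallen. The interaction then called 458 to 718 of all sets and 0 member sets or genes. Strain calls in whole RNA were 777 to 1136 of all sets, 10 to 13 member sets and 3 to 5 genes, and in GLOBINclear RNA 1915 to 3086, 6 to 15 and 1 to 6. Calls against the rest were 3802 to 6319 in all and 25 to 37 for member sets. Without C57Bl/6J replicate 1 and 129S1/ImJ replicate 3 together, 11 member sets differed by strain in whole and 12 in GLOBINclear RNA. Signal over background limits the dim sets, above all those of Pklr.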
